A study of Mus musculus with 12 samples.

Results

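Integrins are the adhesion receptors through which microglia hold on to matrix, to other cells and to opsonized debris. The 10 chains described here are: the beta chains Itgb2, Itgb1 and Itgb5, and the alpha chains Itgam, Itgal, Itgax, Itga4, Itga5, Itga6 and Itgav. They were taken by gene symbol, which gave 10 of the 55401 genes in the count tables, and each of the 10 passed the low-count filter of the test. RNA of microglia sorted as CD45int CD11b+ was sequenced in 12 libraries, with 3 libraries per group. The groups were WT-Sham and WT-tFCI, and miKO-Sham and miKO-tFCI. All mice were males with HDAC3 loxp/loxp, which WT mice carried with CX3CR1 wt/wt and miKO mice with CX3CR1 CreER/wt. The miKO mice therefore lacked Hdac3 in cells that had the Cx3cr1 promoter active when tamoxifen was given in young adulthood, and also lacked 1 intact Cx3cr1 copy, whereas WT mice had no CreER. Surgery followed at least a month after tamoxifen. tFCI (transient focal cerebral ischemia) was a left middle cerebral artery occlusion of 60 min, Sham mice had anesthesia and arterial exposure without occlusion, and the tFCI microglia were taken on the third day. Each library pooled cells of several hemispheres, so that its value is a mean over animals. Replicate 1 of each group was in batch 1 and replicates 2 and 3 in batch 2.

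Integrins work as pairs of an alpha and a beta chain. Itgb2 pairs with Itgam (CD11b, complement receptor 3 or Mac-1), Itgal (CD11a, LFA-1) and Itgax (CD11c, complement receptor 4), which bind ICAMs, fibrinogen and the complement fragment iC3b. Itgb1 pairs with Itga4, Itga5, Itga6 and Itgav, receptors for VCAM-1 and fibronectin, for fibronectin, for laminins and for RGD ligands such as vitronectin. Itgav also pairs with Itgb5, and the pair is used in the uptake of apoptotic cells and the activation of latent TGF-beta. Ligand binding needs the chain to be switched on from inside the cell by talin and kindlin, and passes its signal on through Src-family and focal adhesion kinases.

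Libraries held 7697864 to 9452222 counts on genes (median 8226429.5). Levels are given as CPM, read counts relative to the library's total on genes after scaling by edgeR's TMM factors, and differences as log2 fold changes with SE from edgeR's quasi-likelihood test on all 16451 genes that passed the filter, with Benjamini-Hochberg adjusted p. A gene passed at an adjusted p under 0.05. The targeted gene Hdac3 was lower in miKO-Sham than in WT-Sham (-0.81 on the log2 scale, SE 0.16, adjusted p = 0.00281) and in miKO-tFCI than in WT-tFCI (-0.71, SE 0.16, adjusted p = 0.0127). Cx3cr1, of which miKO mice had 1 intact copy, was lower by genotype too, at -1.68 in Sham and -1.84 after tFCI. The libraries had a pair of features that touch the results. miKO-Sham replicates 1 and 2 lay closer to each other than any other pair of replicates, with a chi-square per degree of freedom of 2.88, where the other pairs gave 3.87 to 86.4, although the labels put them in different batches. Their deposited tables also carry the same sample designation. Their counts differed beyond sampling noise and they were kept as 2 libraries, but whether they came from separate pools of animals is not settled, so the miKO-Sham group may hold fewer than 3 independent samples. miKO-tFCI replicate 1 lay farthest from its group, with values of 61.9 and 86.4 against the other 2 libraries. The 12 microglia markers summed to 12934 CPM there, compared with 18779 and 22313 in the other miKO-tFCI libraries and 25350 to 43806 in the 9 libraries of the other groups. Cx3cr1, of which miKO mice had 1 intact copy, is among these markers and enters their sum. The part of the lost copy in the sum was not tested. Where leaving out one of these libraries ended a call of a gene named in the text, the value without it is given. The fits of the pathway lists without single libraries were chosen after seeing the data.

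Upstream sequences are shown for a pair of neighbouring CD11 genes and for Itga4, because Itgam and Itgax lie next to each other but did not give the same calls, whereas Itgax and Itga4 passed the test upward in all 4 comparisons between groups. The lines give the 250 bases before the RefSeq start on the + strand of GRCm38.p6, at chr7:128062390-128062639, chr7:128129300-128129549 and chr2:79255176-79255425. Capitals mark the PU.1 core GAGGAA or its reverse complement TTCCTC. 
Itgam: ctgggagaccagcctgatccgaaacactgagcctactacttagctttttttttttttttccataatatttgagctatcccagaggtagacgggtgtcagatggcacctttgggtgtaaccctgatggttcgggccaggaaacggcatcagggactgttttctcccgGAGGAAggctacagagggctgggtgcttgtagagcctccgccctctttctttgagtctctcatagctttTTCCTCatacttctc
Itgax: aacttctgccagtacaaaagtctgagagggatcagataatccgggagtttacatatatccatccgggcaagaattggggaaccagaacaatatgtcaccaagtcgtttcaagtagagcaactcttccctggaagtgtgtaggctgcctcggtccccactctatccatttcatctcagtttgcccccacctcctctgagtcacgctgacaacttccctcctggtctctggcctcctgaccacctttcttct
Itga4: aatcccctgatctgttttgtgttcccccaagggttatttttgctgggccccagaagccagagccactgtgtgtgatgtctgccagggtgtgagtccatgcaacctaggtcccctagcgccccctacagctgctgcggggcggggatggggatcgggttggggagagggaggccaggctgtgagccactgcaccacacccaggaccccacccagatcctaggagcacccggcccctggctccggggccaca

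In this window, Itgam held 2 matches to the PU.1 core, Itgax 0 and Itga4 0. Among the members not shown, Itgav held 2, Itga5 and Itgb1, which passed upward with tFCI, 1 each, and Itgb5 0. Whether the matches bear on the calls was not tested. The core was present in 23.3% of 32851 promoter windows of the same length, and a GC box (GGGCGG or CCGCCC) in 32.7% of them. Itgam and Itga4 held 1 GC box each and Itgax 0. Of the 10 members, 7 had a promoter sequence in the reference table, and Itgb2, Itgal and Itga6 did not. These are matches of letters only.

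The members spanned a wide range of levels. Per kilobase of exon, Itgb5 stood first in WT-tFCI at 496 ± 25.8 CPM per kb (SD, n = 3), followed by Itgb2 at 183 ± 19.7, Itgam at 101 ± 9.97 and Itgb1 at 55.3 ± 6.38. Itga6 (32.8 ± 2.03) and Itga5 (21.6 ± 4.58) came next, then Itgav (9.69 ± 0.452) and Itgax (3.86 ± 0.671). Itga4 (0.727 ± 0.462) and Itgal (0.630 ± 0.156) were lowest and did not differ beyond their spread. In miKO-tFCI the order was the same down to Itgb1, after which Itga5 (22.2 ± 4.58) stood above Itga6 (11.5 ± 1.45), and Itgal (3.24 ± 0.450) above Itga4 (1.67 ± 1.41). In that group Itga6 and Itgav (10.5 ± 1.20) lay within their spreads. The order is a description with 3 limits on gene length. Of the 5024 exonic bases of Itgam, 3450 are shared with the annotated gene Gm49368 on the same strand, and a counter that drops ambiguous reads loses those, so that the per-kilobase level of Itgam is a minimum. Itga4 shares 1124 of 13978 exonic bases with Cerkl and Itgav 634 of 10744 with Gm13684, both on the other strand, and the library kit does not mark strand. The version of the Itga6 identifier differs from that in the annotation used for lengths.

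**Figure D1:**
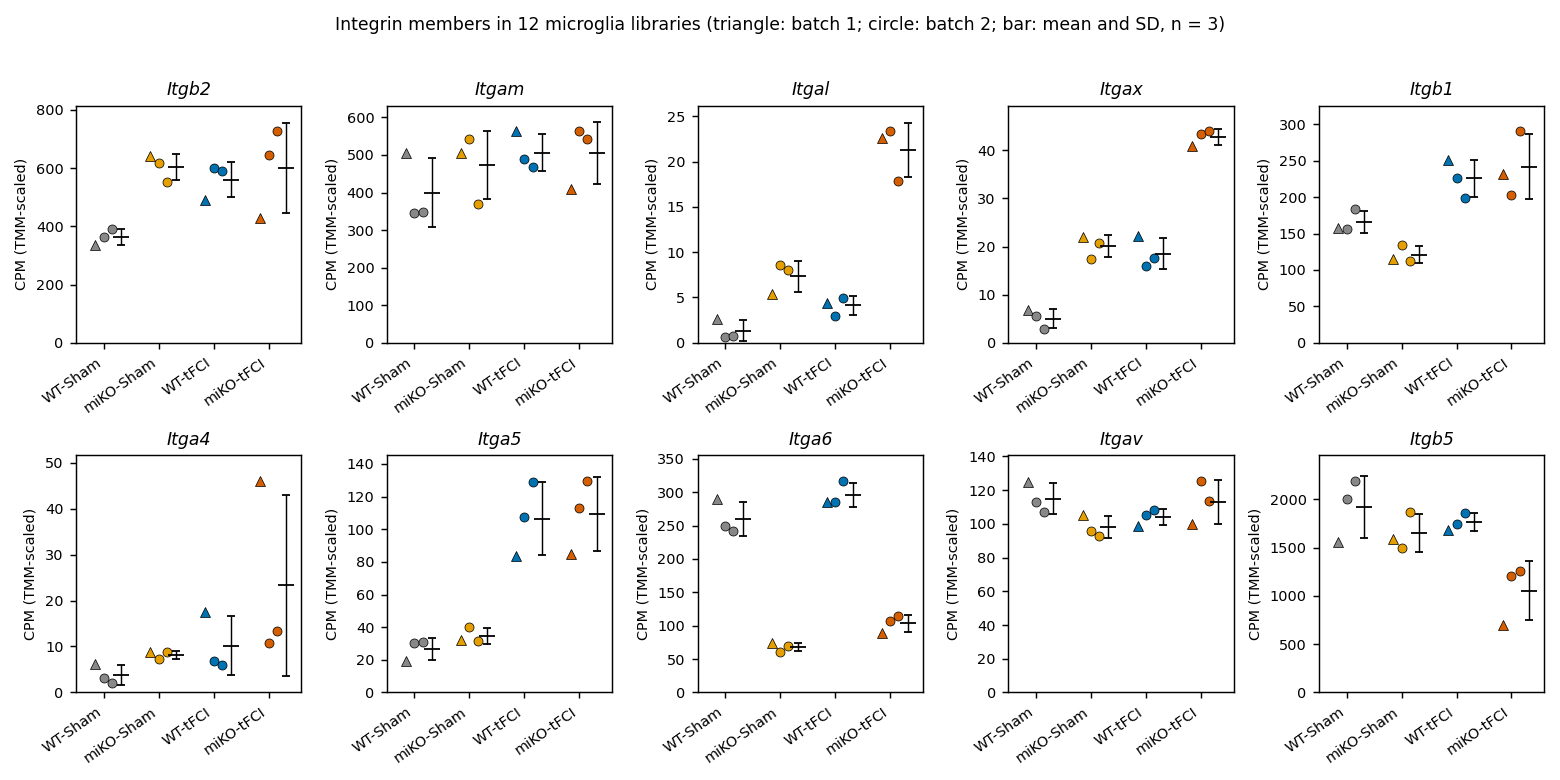
Level of each of the 10 integrin members in CPM (vertical axis, from 0) in the 12 libraries of the 4 groups (horizontal axis); triangles are batch 1, circles batch 2, and bars the mean and SD of 3 libraries. Itgal, Itgax and Itga6 separate the miKO libraries from the WT libraries of the same surgery. Itga5 separates tFCI from Sham, as do Itgal, Itgax and Itgb1 within each genotype.

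Among the leukocyte integrins, Itgal and Itgax changed most, and the shared chain Itgb2 rose with tFCI in WT and with genotype in Sham. Itgal (chr7:127296260-127335138 on the + strand of GRCm38), which forms LFA-1, was at 2.64, 0.672 and 0.718 CPM in WT-Sham replicates 1 to 3 and at 5.41, 8.60 and 8.07 CPM in miKO-Sham. It was at 4.43, 3.001 and 4.995 CPM in WT-tFCI, and the miKO-tFCI libraries had 22.6, 23.4 and 17.9 CPM. Every miKO library lay above every WT library of the same surgery, and every tFCI library above every Sham library of the same genotype in WT and in miKO. Itgal was higher by a log2 fold change of 2.36 in miKO-tFCI vs. WT-tFCI (SE 0.37, adjusted p = 0.0011) and 2.52 in miKO-Sham vs. WT-Sham (SE 0.43, adjusted p = 0.00074). With tFCI it rose by 1.67 in WT (SE 0.44, adjusted p = 0.00757) and by 1.51 in miKO (SE 0.35, adjusted p = 0.00336). The WT-Sham libraries held 22, 6 and 7 reads of Itgal, so that folds against this group are imprecise. Within batch 1 the difference between miKO-Sham and WT-Sham was 0.97 and within batch 2 it was 3.20. For tFCI in WT the within-batch values were 0.69 and 2.14, and leaving out 1 library gave 1.32 to 2.54, with the call kept each time.

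Itgax (chr7:128129547-128150657, + strand), which forms complement receptor 4, was at 6.73, 5.49 and 2.77 CPM in WT-Sham and at 22.1, 17.5 and 20.7 CPM in miKO-Sham. Its levels were 22.1, 15.9 and 17.5 CPM in WT-tFCI, and the miKO-tFCI libraries had 40.9, 43.4 and 44.0 CPM. miKO-Sham and WT-tFCI overlapped, while WT-Sham lay below and miKO-tFCI above all other libraries. Itgax was 4.08-fold higher in miKO-Sham than in WT-Sham (log2 fold change 2.03, SE 0.23, adjusted p = 2.34e-05) and 2.33-fold higher in miKO-tFCI than in WT-tFCI (1.22, SE 0.21, adjusted p = 0.00203). It rose 3.74-fold with tFCI in WT (1.90, SE 0.23, adjusted p = 1.98e-05) and 2.14-fold in miKO (1.10, SE 0.21, adjusted p = 0.000716). The call held in all 21 alternatives run for each of these 4 comparisons, leave-one-out included. An antibody to CD11c, the product of Itgax, was in the staining panel, and how the gate on CD45int CD11b+ cells used it is not stated for these microglia.

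Itgb2 (chr10:77530252-77565708, + strand), the beta chain that all CD11 chains need at the surface, was at 336, 364 and 390 CPM in WT-Sham and at 640, 617 and 553 CPM in miKO-Sham. It was at 491, 600 and 589 CPM in WT-tFCI, and the miKO-tFCI libraries had 430, 644 and 727 CPM. WT-Sham lay below every other library, and the other 3 groups overlapped, with miKO-tFCI replicate 1 the lowest of them. Its log2 fold change was 0.74 in miKO-Sham vs. WT-Sham (SE 0.16, adjusted p = 0.00387) and 0.62 in WT-tFCI vs. WT-Sham (SE 0.16, adjusted p = 0.00613). In miKO-tFCI vs. WT-tFCI it was 0.09, with a 95% interval of -0.25 to 0.42, and in miKO-tFCI vs. miKO-Sham -0.04, with an interval of -0.37 to 0.30.

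Itgam (chr7:128062640-128118491, + strand) encodes CD11b, by which the cells were sorted, so that its level was conditioned by the gate. It was at 505, 345 and 347 CPM in WT-Sham and at 505, 542 and 370 CPM in miKO-Sham. In WT-tFCI it was at 563, 488 and 468 CPM and in miKO-tFCI at 410, 564 and 543 CPM. The groups overlapped in all 4 comparisons, and none passed the test. The log2 fold change in miKO-tFCI vs. WT-tFCI was 0.01 (95% interval -0.39 to 0.41) and in WT-tFCI vs. WT-Sham 0.35 (-0.05 to 0.75, adjusted p = 0.152). The latter passed in 2 of 21 alternatives.

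Of the laminin and fibronectin receptors, Itga6 fell with genotype and Itga5 rose with tFCI. Itga6 (chr2:71745616-71858416, + strand), a laminin receptor chain, was at 289, 249 and 242 CPM in WT-Sham and at 73.4, 60.9 and 69.7 CPM in miKO-Sham. It was at 286, 285 and 317 CPM in WT-tFCI, and the miKO-tFCI libraries had 89.3, 107 and 115 CPM. Each miKO library lay far below each WT library. The log2 fold change was -1.93 in miKO-Sham vs. WT-Sham (SE 0.14, adjusted p = 5.12e-07) and -1.51 in miKO-tFCI vs. WT-tFCI (SE 0.14, adjusted p = 1.37e-05), and within-batch values were -1.97 and -1.91 in Sham and -1.68 and -1.44 after tFCI. Among all tested genes the latter difference stood at percentile 1.93. With tFCI, Itga6 rose by 0.61 in miKO (SE 0.14, adjusted p = 0.00302) and was 0.19 in WT (95% interval -0.11 to 0.48, adjusted p = 0.30). The difference between these responses, 0.42 (SE 0.20), did not pass (adjusted p = 0.276).

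Itga5 (chr15:103344286-103366763, - strand), the alpha chain of the classical fibronectin receptor, was at 19.1, 30.4 and 30.7 CPM in WT-Sham and at 32.2, 40.1 and 31.3 CPM in miKO-Sham. It was at 83.5, 107 and 129 CPM in WT-tFCI, and the miKO-tFCI libraries had 85.0, 113 and 130 CPM. Every tFCI library was above every Sham library, and the tFCI groups overlapped almost fully. Itga5 rose 4.005-fold with tFCI in WT (log2 fold change 2.00, SE 0.15, adjusted p = 1.83e-07) and 3.12-fold in miKO (1.64, SE 0.15, adjusted p = 1.45e-06). In miKO-tFCI vs. WT-tFCI it was 0.04 (95% interval -0.27 to 0.34). miKO-Sham lay above WT-Sham in each library, but the difference of 0.40 did not pass (SE 0.15, adjusted p = 0.0863).

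Itgb1 (chr8:128685654-128733200, + strand), the beta chain of both, was at 158, 156 and 183 CPM in WT-Sham and at 116, 135 and 113 CPM in miKO-Sham. It was at 251, 227 and 199 CPM in WT-tFCI, and the miKO-tFCI libraries had 232, 203 and 291 CPM. miKO-Sham was the lowest group, and both tFCI groups lay above both Sham groups. With tFCI, Itgb1 rose 2.00-fold in miKO (log2 fold change 1.00, SE 0.16, adjusted p = 0.000168) and 1.36-fold in WT (0.45, SE 0.15, adjusted p = 0.0337). The call in WT was lost in 5 of 21 alternatives, with an adjusted p of up to 0.170 without WT-tFCI replicate 1. The difference between miKO-Sham and WT-Sham was -0.45 (SE 0.16, adjusted p = 0.0574) and passed in 7 of 21 alternatives.

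Itga4 (chr2:79255426-79333123, + strand), which binds VCAM-1, was at 6.13, 3.14 and 2.05 CPM in WT-Sham and at 8.75, 7.21 and 8.71 CPM in miKO-Sham. It was at 17.6, 6.93 and 5.97 CPM in WT-tFCI, and the miKO-tFCI libraries had 46.0, 10.7 and 13.3 CPM. Replicate 1, the batch 1 library, was the highest in each group, though only slightly in miKO-Sham, and the tFCI groups overlapped. The log2 fold change was 1.30 in miKO-Sham vs. WT-Sham (SE 0.34, adjusted p = 0.0156), a call that held in 18 of 21 alternatives, with an adjusted p of 0.0724 without WT-Sham replicate 3, and that was also lost without miKO-Sham replicate 3 and without the batch term. In miKO-tFCI vs. WT-tFCI it was 1.10 (SE 0.31, adjusted p = 0.0339), and this call was lost in 7 of 21 alternatives. Without miKO-tFCI replicate 1 it was 0.68 (adjusted p = 0.252), and it was also lost without any of the WT-tFCI libraries and without miKO-tFCI replicate 3. With tFCI, Itga4 rose by 1.39 in WT (SE 0.34, adjusted p = 0.00457) and by 1.20 in miKO (SE 0.32, adjusted p = 0.00702). The log2 fold change of Itga4 in miKO-tFCI vs. miKO-Sham was 0.80 without miKO-tFCI replicate 1 (adjusted p = 0.0758) and 0.73 without miKO-Sham replicate 1 (adjusted p = 0.0572), so that either library decided the call.

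Itgav and Itgb5 form a pair, and only Itgb5 gave a call. Itgb5 (chr16:33829665-33949338, + strand), the most abundant member, was at 1562, 2006 and 2190 CPM in WT-Sham and at 1586, 1493 and 1873 CPM in miKO-Sham. It was at 1680, 1741 and 1860 CPM in WT-tFCI, and the miKO-tFCI libraries had 699, 1210 and 1255 CPM. The miKO-tFCI libraries lay below all others, whereas the remaining groups overlapped. Itgb5 fell by 0.77 in miKO-tFCI vs. WT-tFCI (SE 0.17, adjusted p = 0.0108) and by 0.68 in miKO-tFCI vs. miKO-Sham (SE 0.17, adjusted p = 0.00498). Of the 12 microglia markers, 6 also fell and 0 rose in miKO-tFCI vs. WT-tFCI (background 5.4% lower and 4.5% higher). The part of the microglia content in the Itgb5 result was not tested. In the comparison of the tFCI groups the difference of Itgb5 was -1.26 within batch 1 and -0.55 within batch 2. Itgav (chr2:83724397-83806916, + strand) was at 107 to 125 CPM in WT-Sham, 92.9 to 105 in miKO-Sham, 98.9 to 108 in WT-tFCI and 99.7 to 126 in miKO-tFCI. Its log2 fold changes lay between -0.23 and 0.20 in the 4 comparisons, and none passed.

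By comparison, 6 of 10 members rose in WT-tFCI vs. WT-Sham, where 23.5% of all tested genes were called higher, and 0 fell, where 15.4% were called lower. Their median log2 fold change was 0.53, against 0.02 over all genes. In miKO-tFCI vs. miKO-Sham, 6 rose and 1 fell (background 24.5% and 17.7%), with a median of 0.80 against 0.03. In miKO-Sham vs. WT-Sham, 4 rose and 1 fell (9.94% and 8.12%), with a median of 0.32 against 0.04. In miKO-tFCI vs. WT-tFCI, 3 rose and 2 fell (4.5% and 5.4%), with a median of 0.09 against 0.04. The comparisons share groups of libraries, so their calls are not independent. Of bulk values it holds for all of these that fewer cells of a type and less RNA per cell cannot be told apart. In the interaction of genotype and surgery, edgeR called 0 members, where 1.25% of genes were called higher and 2.57% lower. There, 5 members had an unadjusted p under 0.05, a count that lacks the share of all genes and is not read as a result. DESeq2 called 1 member, Itgb2, and 999 of all 16451 genes. The difference of Itgb2 between tFCI and Sham was smaller in miKO than in WT. It was -0.64 from DESeq2 (adjusted p = 0.0346) and -0.66 from edgeR (SE 0.22, adjusted p = 0.128).

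**Figure D2:**
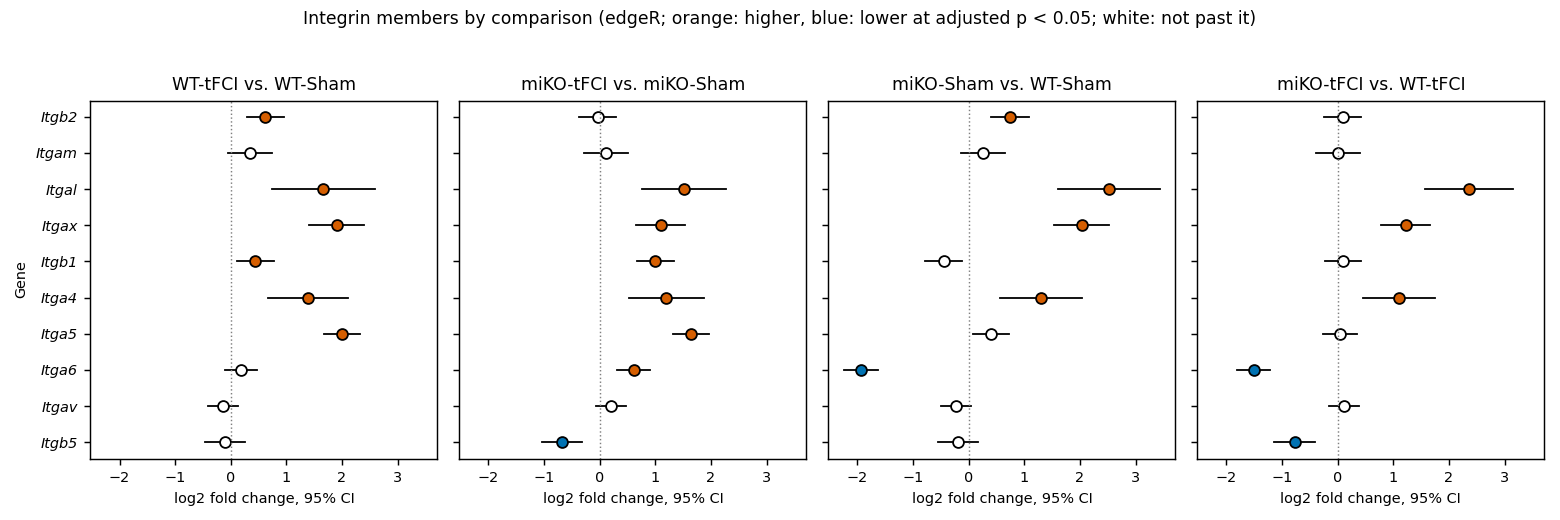
log2 fold change (horizontal axis) with its 95% interval for each of the 10 members (vertical axis) in the 4 comparisons between groups; orange points were higher and blue points lower at an adjusted p under 0.05, white points did not pass. Itgal, Itgax and Itga4 are orange in all 4 panels, Itga6 is blue in both genotype panels, and Itgb5 is blue in the 2 panels that hold miKO-tFCI.

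The composition of the alpha chains was described as shares of their summed CPM per kilobase within each library, which do not depend on library scaling. Of the members that pair with Itgb2, Itgam made up 98.2 to 99.0% in WT-Sham, 93.0 to 95.6% in miKO-Sham, 95.5 to 96.3% in WT-tFCI and 87.2 to 90.1% in miKO-tFCI. Itgax took 0.826 to 1.64%, 3.23 to 5.45%, 3.28 to 3.93% and 7.24 to 9.10% in the same order. Over the exonic bases that no other gene shares, Itgam held more, 95.6 to 96.7% in miKO-tFCI, and the Itgax share was 2.44 to 3.13% there and 0.261 to 0.519% in WT-Sham. So the size of these shares depends on how reads on the shared bases of Itgam were counted, while the order of WT-Sham and miKO-tFCI did not change.

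For Itgb1 the sum was taken over the 4 alpha chains among the members, and other integrin chains were left out. Itga9, one of those left out, had a mean of 96.1 CPM in WT-Sham and 14.0 CPM in miKO-tFCI. Of the 4 chains, Itga6 made up 62.0 to 66.8% in WT-Sham and 49.0 to 53.6% in WT-tFCI. Its share was 27.7 to 33.1% in miKO-Sham and 24.9 to 25.1% in miKO-tFCI. Itga5 took 8.07 to 14.4% in WT-Sham, 26.0 to 33.4% in miKO-Sham, 28.7 to 36.4% in WT-tFCI and 43.4 to 52.0% in miKO-tFCI. Of these 4, Itga6 was the leading chain in every WT library, whereas Itga5 led in every miKO-tFCI library. With the longest transcript as gene length, the median share of Itga6 was 71.5% in WT-Sham and 35.8% in miKO-tFCI, where Itga5 had 36.9%. Itgav also pairs with other beta chains, so these are shares of RNA and not of receptors. Within a library the shares of a family add up to the whole, so they are not separate results. A share can move while its own gene does not. In miKO-tFCI vs. WT-tFCI the log2 fold changes of Itga5 (0.04), Itgav (0.12) and Itgam (0.01) did not pass, although their shares differed. In exact two-sided permutation tests, the shares of Itgam, Itgal, Itgax, Itga5, Itga6 and Itgav each gave p = 0.1 in all 4 comparisons, the smallest p that 3 against 3 libraries allow. In the same exact permutation test the share of Itga4 gave p = 0.1 only in miKO-Sham vs. WT-Sham. It overlapped between groups in the other comparisons, with exact permutation p = 0.4 in WT-tFCI vs. WT-Sham, 0.3 in miKO-tFCI vs. WT-tFCI and 1.0 in miKO-tFCI vs. miKO-Sham.

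**Figure D3:**
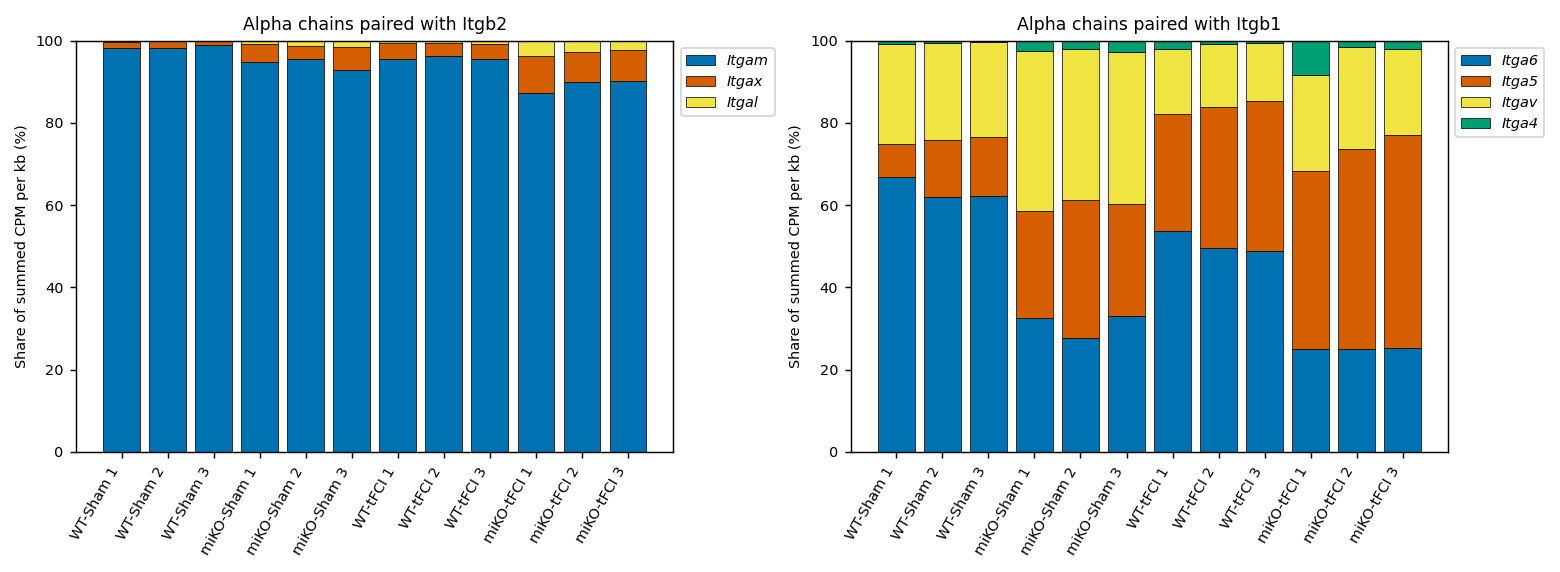
Share of each alpha chain in the summed CPM per kilobase (vertical axis, percent) in each of the 12 libraries (horizontal axis), for the chains that pair with Itgb2 (left) and with Itgb1 (right). Itgam fills 87.2 to 99.0% of every left bar, and in the right panel Itga6 shrinks from 62.0 to 66.8% in WT-Sham to 24.9 to 25.1% in miKO-tFCI.

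Other integrin chains were taken from a list of 16, of which 12 passed the low-count filter. In WT-tFCI vs. WT-Sham, 4 rose and 1 fell (median 1.48), where 23.5% of all tested genes were called higher and 15.4% lower. In miKO-tFCI vs. miKO-Sham 7 rose and 2 fell (median 2.29), where the shares were 24.5% and 17.7%. No fold is given against a group with at most 5 reads in each library. This held for Itga1, a collagen receptor chain, in WT-Sham and miKO-Sham, for Itgb8, which with Itgav activates TGF-beta, in WT-Sham, and for Itga11 in miKO-Sham, although their calls were upward with tFCI. Itga3, a laminin receptor chain with at most 10 reads per library in WT-Sham, rose by 2.55 in WT (SE 0.56, adjusted p = 0.00236) and by 3.73 in miKO. Itgb7, the partner of Itga4 in lymphocytes, rose by 2.197 in WT (SE 0.63, adjusted p = 0.0128) and by 2.15 in miKO. The calls of Itgb7 were lost without the replicate 1 library of the tFCI group concerned, with 1.43 without WT-tFCI replicate 1 (adjusted p = 0.146) and 1.38 without miKO-tFCI replicate 1 (adjusted p = 0.0862). Its level was 30.8 CPM in WT-tFCI replicate 1 against 1.96 and 2.56 in the others, and 68.9 CPM in miKO-tFCI replicate 1 against 4.27 and 5.93.

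Replicate 1 was the highest library in both tFCI groups for 9 of the 12 chains, Itga1, Itga3, Itgb7 and Itgb8 among them, compared with 28.8% of all tested genes. The endothelial and monocyte marker sums were also highest in replicate 1 of both tFCI groups, and their part in the result was not tested. Itgb4 rose by 1.61 in miKO-tFCI vs. miKO-Sham (SE 0.59, adjusted p = 0.0391), a call lost without miKO-tFCI replicate 1 (1.03, adjusted p = 0.235) and without miKO-Sham replicate 1 (1.42, adjusted p = 0.137). Without miKO-Sham replicate 1 the calls of Itgb7 (1.16, adjusted p = 0.088) and Itga11 (adjusted p = 0.0598) were lost too.

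Itga9, a receptor for tenascin and VCAM-1, fell in all 4 comparisons. It was at 80.8, 103 and 105 CPM in WT-Sham, 18.0, 19.8 and 30.6 in miKO-Sham, 27.6, 24.5 and 26.2 in WT-tFCI and 9.40, 15.8 and 16.8 in miKO-tFCI. WT-Sham lay above all other groups and miKO-tFCI below them. Itga9 had a log2 fold change of -2.08 in miKO-Sham vs. WT-Sham (SE 0.19, adjusted p = 3.01e-06), -1.86 in WT-tFCI vs. WT-Sham (SE 0.19, adjusted p = 3.11e-06) and -0.94 in miKO-tFCI vs. WT-tFCI (SE 0.20, adjusted p = 0.00794). Itgb3, which pairs with Itgav, rose by 1.18 in miKO-Sham vs. WT-Sham (SE 0.17, adjusted p = 0.000148) and fell by 0.89 in miKO-tFCI vs. miKO-Sham (SE 0.17, adjusted p = 0.000621). Its levels were 60.5 to 64.0 CPM in WT-Sham and 126 to 150 CPM in miKO-Sham. Itgae fell by 1.77 in miKO-Sham vs. WT-Sham (SE 0.45, adjusted p = 0.0118), a call lost without miKO-Sham replicate 1, at -1.42 (adjusted p = 0.055). Itga2b, the platelet chain, was also called lower there, with at most 8 reads per library in WT-Sham and at most 1 in miKO-Sham, and called higher in miKO-tFCI vs. miKO-Sham, so that no fold is given. The lower call was lost without miKO-Sham replicate 1 (adjusted p = 0.178) and without WT-tFCI replicate 1 (adjusted p = 0.054). Of the list, edgeR called 0 chains higher and 1 lower in miKO-tFCI vs. WT-tFCI, with a median of 0.81. The interaction passed for Itga9 (1.14, SE 0.27, adjusted p = 0.0298) and for Itgb3 (-0.95, SE 0.23, adjusted p = 0.0349). Both calls were lost without miKO-Sham replicate 1 (adjusted p = 0.0761 and 0.102) and without miKO-Sham replicate 2 (0.0648 and 0.0534), and that of Itgb3 also without miKO-tFCI replicate 1 (0.0547).

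Most of the ligands tested rose with tFCI. Of 43 listed, 35 passed the filter, and 28 rose and 2 fell in WT-tFCI vs. WT-Sham, with a median of 2.76, where 23.5% of all tested genes were called higher and 15.4% lower. Without WT-tFCI replicate 1, 23 rose and 2 fell, where 18.1% of all genes were called higher and 11% lower. Replicate 1 was the highest library in both tFCI groups for 26 of the 35 ligands, compared with 28.8% of all genes, as it was for the endothelial markers, which summed to 22.6 to 29.7 CPM in WT-Sham and 81.4 to 234 CPM in WT-tFCI. Among them the vessel and basement membrane gene Col4a1 was at 79.0, 22.4 and 20.8 CPM in WT-tFCI, named here after its values were seen. The part of these cells in the ligand levels was not tested. Spp1 (osteopontin), which binds Itgav and Itga4 pairs, went from 1.34 to 3.49 CPM in WT-Sham to 4927 to 6827 CPM in WT-tFCI (log2 fold change 11.15, SE 0.71, adjusted p = 2.99e-08). Tnc (tenascin C), a ligand of Itga9, had no reads in WT-Sham and was at 57.1, 9.81 and 14.3 CPM in WT-tFCI. The falls were Jam3 (-1.16, SE 0.28, adjusted p = 0.00413) and F11r (-0.83, SE 0.17, adjusted p = 0.00135), junctional adhesion molecules.

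Between the tFCI groups, 9 ligands rose and 5 fell in miKO-tFCI vs. WT-tFCI (median 0.90), where 4.5% of all genes were called higher and 5.4% lower. Without miKO-tFCI replicate 1 only 1 rose and 4 fell (median 0.69, with 3.26% and 4.07% of all genes called). In the batch 2 libraries alone 9 of 33 rose and 3 fell, where 4.7% of all genes were called higher and 5.05% lower. Thbs1 (thrombospondin 1) was at 132, 20.5 and 22.8 CPM in WT-tFCI and at 291, 73.9 and 93.6 CPM in the miKO-tFCI libraries. It rose by 1.55 (SE 0.40, adjusted p = 0.0253), a call lost without miKO-tFCI replicate 1 (1.284, adjusted p = 0.127). Lama4, a laminin chain, was at 8.62, 2.65 and 1.34 CPM against 21.0, 7.67 and 7.91 CPM. It rose by 1.65 (SE 0.48, adjusted p = 0.0404), a call lost without miKO-tFCI replicate 1 (1.58, adjusted p = 0.184) and without WT-tFCI replicate 1 (2.11, adjusted p = 0.0586). Replicate 1 was the highest library of both genes in both groups. Icam1, the main ligand of LFA-1, fell by 1.01 (SE 0.13, adjusted p = 0.000262), from 355, 448 and 494 CPM in WT-tFCI to 181, 217 and 246 CPM in miKO-tFCI, while Itgal RNA itself was higher. Adam15 fell by 0.95 (SE 0.13, adjusted p = 0.000325). In miKO-Sham vs. WT-Sham 2 ligands rose and 3 fell (median 0.08, background 9.94% and 8.12%), and in miKO-tFCI vs. miKO-Sham 30 rose and 4 fell (median 3.32, background 24.5% and 17.7%).

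Activators and adaptors gave calls in both directions with tFCI. Of 37 tested of 39 listed, 9 rose and 9 fell in WT-tFCI vs. WT-Sham (median 0.07, background 23.5% and 15.4%), and edgeR called 5 higher and 0 lower in miKO-tFCI vs. WT-tFCI (median 0.27, background 4.5% and 5.4%). Fermt2 (kindlin-2) was at 15.8, 5.31 and 2.80 CPM in WT-tFCI and at 34.4, 11.1 and 7.66 CPM in the miKO-tFCI libraries, with replicate 1 the highest in both, as for the endothelial markers. It rose by 3.65 with tFCI in WT (SE 0.47, adjusted p = 3.04e-05) and by 1.16 in miKO-tFCI vs. WT-tFCI (SE 0.35, adjusted p = 0.0475). The latter call was lost without miKO-tFCI replicate 1 (1.04, adjusted p = 0.20) and without WT-tFCI replicate 1 (1.26, adjusted p = 0.115). Dok2, an adaptor of the docking protein family, rose by 2.53 (SE 0.33, adjusted p = 3.74e-05) and by 0.98 (SE 0.28, adjusted p = 0.0368), the latter call lost without WT-tFCI replicate 1 (adjusted p = 0.0665). Rassf5 (RAPL), which helps Rap1 switch on LFA-1, fell by 0.85 with tFCI in WT (SE 0.19, adjusted p = 0.00302), and Tln2 (talin 2) by 0.83 (SE 0.13, adjusted p = 0.000176). In miKO-Sham vs. WT-Sham, 7 rose and 4 fell (median 0.25, background 9.94% and 8.12%), and in miKO-tFCI vs. miKO-Sham 14 rose and 14 fell (median -0.12, background 24.5% and 17.7%).

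Of the 39 signalling genes, all of which passed the filter, 12 rose and 9 fell in WT-tFCI vs. WT-Sham (median -0.06, background 23.5% and 15.4%). Of the same genes, 1 rose and 6 fell in miKO-tFCI vs. WT-tFCI (median 0.10, background 4.5% and 5.4%). Without miKO-tFCI replicate 1, 4 rose and 3 fell (background 3.26% and 4.07%). Without WT-tFCI replicate 1 edgeR called 0 higher and 3 lower (background 2.78% and 4.05%). Parvg (gamma-parvin), a partner of integrin-linked kinase in leukocytes, fell by 1.52 in miKO-tFCI vs. WT-tFCI (SE 0.13, adjusted p = 1.12e-05), from 144, 156 and 173 CPM in WT-tFCI to 47.6, 54.0 and 64.4 CPM in miKO-tFCI. Pik3r1, the regulatory subunit of PI3-kinase, fell by 0.89 (SE 0.14, adjusted p = 0.00139). The gene that rose was Fgr, a Src-family kinase of myeloid cells (0.69, SE 0.18, adjusted p = 0.0281), a call lost without miKO-tFCI replicate 1 (0.46, adjusted p = 0.192) and without WT-tFCI replicate 1 (adjusted p = 0.0994). With tFCI in WT, Parva (alpha-parvin) rose by 3.17 (SE 0.70, adjusted p = 0.00265), Elmo1 fell by 1.21 (SE 0.14, adjusted p = 1.08e-05) and Git2 by 0.85 (SE 0.13, adjusted p = 0.000128). Of the 291 reads of Parva in WT-tFCI, 1 library held 206. The rise of Parva was 2.54 without WT-tFCI replicate 1 and 1.91 in the batch 2 libraries alone, with the call kept. Lims2 was also called higher, with at most 2 reads per library in WT-Sham, so that no fold is given. In miKO-Sham vs. WT-Sham 9 rose and 8 fell (median 0.23, background 9.94% and 8.12%), and in miKO-tFCI vs. miKO-Sham 10 rose and 13 fell (median -0.14, background 24.5% and 17.7%).

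**Figure D4:**
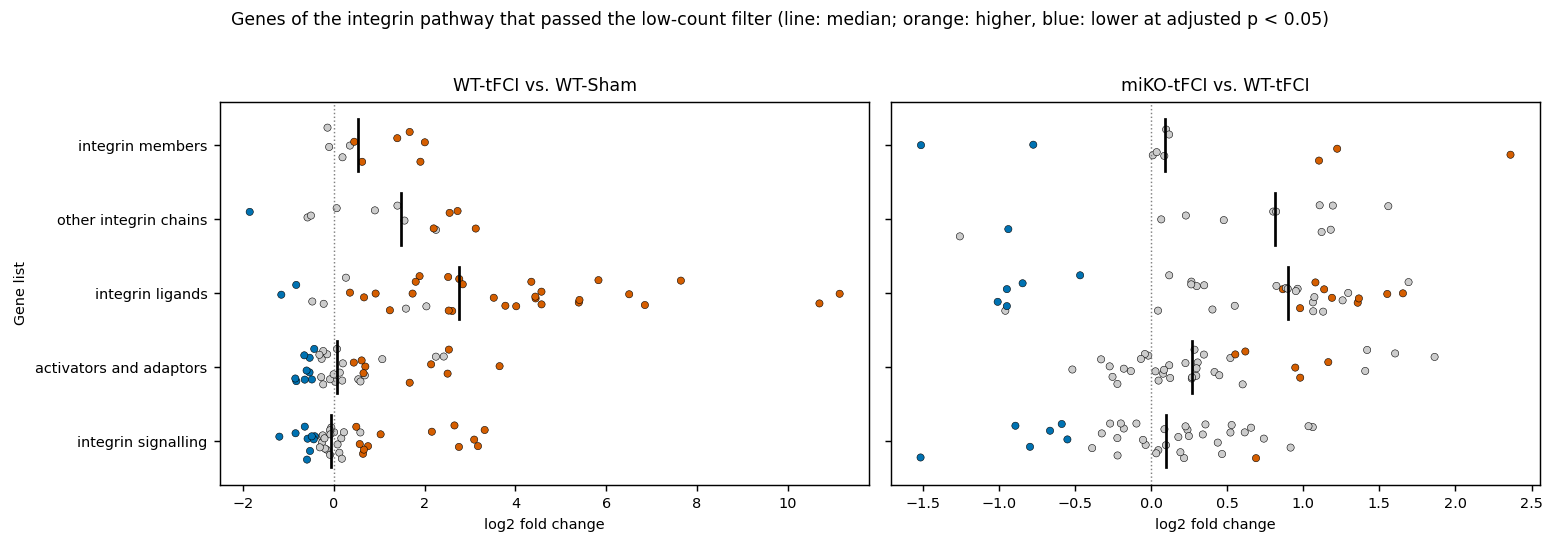
log2 fold change (horizontal axis) of each gene of the 5 integrin lists (vertical axis) that passed the low-count filter, in WT-tFCI vs. WT-Sham (left) and miKO-tFCI vs. WT-tFCI (right); lines are medians, orange points were called higher, blue points lower and grey points not called. The ligands stand to the right with tFCI, with a median of 2.76, while the signalling genes have medians of -0.06 and 0.10 with genes called on both sides of 0.

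Markers of other cells moved with some of these results. The 12 monocyte and infiltrating macrophage markers summed to 15.5 to 106 CPM in WT-Sham, 63.5 to 128 in miKO-Sham, 384 to 680 in WT-tFCI and 479 to 1051 in miKO-tFCI. Of the 11 that passed the filter, 5 rose in WT-tFCI vs. WT-Sham, where 23.5% of all genes were called higher, and 3, namely Ccr2, Chil3 and Hp, in miKO-tFCI vs. WT-tFCI, where 4.5% were. Ccr2 was at 21.4, 3.35 and 3.17 CPM in WT-tFCI, and the miKO-tFCI libraries had 75.9, 18.5 and 22.4 CPM. Of the 9 neutrophil markers tested, 6 rose and 1 fell in miKO-tFCI vs. WT-tFCI (background 4.5% and 5.4%), and Cxcr2 went from 0.598, 1.04 and 1.10 CPM to 16.2, 3.64 and 5.93 CPM. In miKO-Sham vs. WT-Sham, 1 of 11 monocyte markers (Ly6i) and 1 of 9 neutrophil markers (Csf3r) rose (background 9.94%), while Itgal, Itgax, Itga4 and Itgb2 also passed upward.

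Endothelial markers summed to 22.6 to 29.7 CPM in WT-Sham, 14.6 to 23.3 in miKO-Sham, 81.4 to 234 in WT-tFCI and 144 to 434 in miKO-tFCI, with replicate 1 the highest library in both tFCI groups, as for Itga4 and Itgb7. The border-associated macrophage markers summed to 569 to 704 CPM in WT-Sham, 1347 to 1629 in miKO-Sham, 675 to 1000 in WT-tFCI and 927 to 2048 in miKO-tFCI. Of these 8 markers, 1 was called higher and 0 lower by genotype under Sham surgery (background 9.94% and 8.12%). Their median log2 fold change there was 0.09, so the larger sum did not stand for a rise across the list. Between the tFCI groups 2 were called higher and 0 lower (median 1.04, background 4.5% and 5.4%). The 9 dendritic cell markers, of cells that carry CD11c, summed to 1744 to 1827 CPM in WT-Sham, 689 to 908 in miKO-Sham, 852 to 1059 in WT-tFCI and 314 to 604 in miKO-tFCI. In WT-Sham almost all of this was Siglech, which microglia also express, at 1725 to 1808 CPM. In miKO-tFCI Siglech was at 246 to 286 CPM, against a sum over the list of 604 CPM in replicate 1. Ccr7, a marker of migrating dendritic cells, moved the other way and was called higher in all 4 comparisons, with 1.56, 0 and 0.205 CPM in WT-Sham, 4.16, 1.11 and 4.87 in miKO-Sham, 71.1, 5.54 and 9.26 in WT-tFCI and 239, 36.2 and 38.3 in miKO-tFCI. Of the 8 dendritic markers tested, 1 rose (Ccr7) and 1 fell in miKO-tFCI vs. WT-tFCI (background 4.5% and 5.4%). In miKO-Sham vs. WT-Sham 1 rose (Ccr7) and 2 fell (9.94% and 8.12%). With tFCI, 2 rose and 1 fell in WT (23.5% and 15.4%), and 3 rose and 1 fell in miKO (24.5% and 17.7%). T and NK cell markers summed to at most 15.5 CPM in any library, and the NK marker Ncr1 had no reads in any group. The part of these cells in the levels of Itgal, Itgax, Itga4, the other chains and their ligands was not tested.

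**Figure D5:**
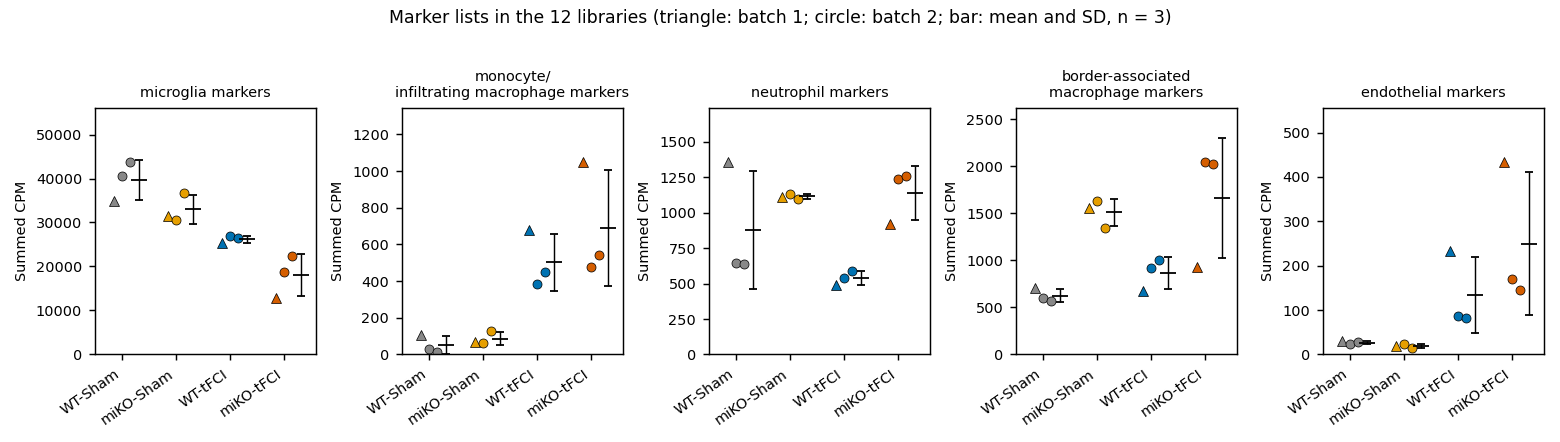
Summed CPM (vertical axis, from 0) of 5 marker lists in the 12 libraries of the 4 groups (horizontal axis); triangles are batch 1, circles batch 2, and bars the mean and SD of 3 libraries. The monocyte and endothelial sums are highest in miKO-tFCI replicate 1, at 1051 and 434 CPM, and the microglia sum is lowest there, at 12934 CPM.

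For the 3 members with the smallest adjusted p in miKO-tFCI vs. WT-tFCI, the genes with the most similar profile were sought by the root mean square difference of mean-centred log2 CPM over the 12 libraries. For Itga6 they were Tspan7 (0.185), Arsb (0.218) and Adamts1 (0.249). Itgax was nearest to Ccl2 (0.316), Cybb (0.371) and Plin3 (0.374). Itgal was nearest to Ccl7 (0.520), Cd177 (0.531) and Clec4n (0.536), so that its nearest genes lay farther off than those of Itga6.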

How the data were processed

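RNA of sorted microglia was sequenced in 12 libraries (SMART-Seq v4, paired ends), 3 for each of 4 groups, which were taken from the labels together with the batch. The methods name a Cytek Aurora for sorting and the labels a CytoFLEX SRT. The deposited values are whole read counts per gene, made by the authors without normalization. The submitters' processing notes list FastQC 0.11.9, Trim Galore, HISAT2 2.2.1, SAMtools, HTSeq 1.99.2 and the builds mm10 and GRCm38.p6. Of counted reads, 30.7 to 38.5% lay on genes. Symbols, positions and exon lengths came from GENCODE M21, matched without identifier version to 55141 of 55401 genes, and promoters from RefSeq (GRCm38.p6).

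In R 4.3.3, edgeR 4.0.16 filtered genes (filterByExpr), scaled counts by TMM (factors 0.864 to 1.11) and fitted quasi-likelihood models with terms for group and for batch to the 12 libraries together, with Benjamini-Hochberg adjustment over 16451 genes. Log2 CPM used a prior count of 2. DESeq2 1.42.0 was an alternative, with other scalings, filters, batch settings and libraries left out. The steps were tested on simulated data. Members and lists were chosen with earlier results of these data known. All 10 members were named, other integrin chains where called, and from each pathway list up to 2 genes per direction with the largest called change. p-values measure the spread between libraries, which pool animals.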

Additional observations from a re-analysis of the deposited data

How the results depend on the processing

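Of the counts of members called, 3 moved by over 1.5 times. In miKO-tFCI vs. WT-tFCI the count was 3 without the batch term (2 higher, 1 lower), since Itga4 (adjusted p = 0.262) and Itgb5 (adjusted p = 0.0722) were lost. Over all 16451 genes the calls fell from 1629 to 745 in the same step. In the interaction it was 1 with DESeq2 and 1 with no filter on low counts, in both cases Itgb2. Over all genes these settings called 999 of 16451 and 1272 of 34185. Leaving out 1 library at a time gave 5 to 6, 4 to 5, 4 to 6, 6 to 7 and 0 to 0 calls, in the order of tFCI against Sham in WT, genotype after tFCI, genotype in Sham, tFCI against Sham in miKO, and the interaction. In the same order these fits called 4940 to 6851, 616 to 1900, 2051 to 3310, 5308 to 7366 and 281 to 883 of the 16859 to 17283 genes tested. Without miKO-Sham replicate 1, or without replicate 2, miKO-Sham vs. WT-Sham had 5 calls among the members, and 2510 or 2318 over all genes. With replicate number as a block, the replicate block gave 6, 5, 5, 7 and 0 calls in the same order, as without it. Over all 16451 genes it gave 6360, 1610, 2908, 6960 and 612. Same-numbered libraries did not deviate together throughout (r from -0.06 to 0.67), so the numbers were not taken as pairs.

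Changes of sign were seen only for differences that did not pass. The log2 fold change of Itgam in miKO-tFCI vs. WT-tFCI was -0.016 with no filter, -0.0026 without the batch term and -0.016 with only the groups compared, and -0.10 to 0.21 leaving out a library. Itgb2 in miKO-tFCI vs. miKO-Sham was 0.028 with at least 10 counts in every library and 0.20 in batch 2 alone (-0.19 to 0.13 leaving out a library). Itga5 in miKO-tFCI vs. WT-tFCI was -0.00053 in batch 2 alone (-0.030 to 0.12), and Itga4 in the interaction 0.073 without the batch term (-0.67 to 0.079). Leaving out a library also turned Itgal in the interaction (-1.04 to 0.16), Itgam in miKO-tFCI vs. miKO-Sham (-0.036 to 0.29), and Itgb2 (-0.043 to 0.23) and Itgb1 (-0.060 to 0.22) in miKO-tFCI vs. WT-tFCI. The cause was not tested. With at least 10 counts in every library Itgal was left out and has no value. The unshared exon length was chosen after seeing the data. Without miKO-tFCI replicate 1 the ligands called in miKO-tFCI vs. WT-tFCI went from 14 to 5. In that fit 3.26% of all genes were called higher and 4.07% lower, against 4.5% and 5.4% in the main fit. Itgal, with as few as 6 reads in a library, is the member most limited by depth.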
